A study of Mus musculus with 16 samples.

Results

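Quadriceps RNA from 8 oligo-treated and 8 saline-treated mouse samples was compared across 2 Illumina bead chips, each of which carried 4 oligo and 4 saline arrays. The comparison takes all 16 arrays of the series and asks which genes differed with either oligo on both chips, with chip as a term of the model. Chip 1 held 4 HSALR transgenic samples given ASO 445236 and 4 HSALR transgenic samples given saline. Chip 2 held 4 HSALR transgenic samples given ASO 190401 and 4 wild-type (WT) samples given saline. All mice were adults on the FVB/n background, and injections were subcutaneous and biweekly over 4 weeks. The labels do not say that the samples came from separate animals, so p-values measure the spread between samples.

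HSALR mice carry a transgene of human skeletal actin whose RNA holds an expanded CUG repeat. They are a model of myotonic dystrophy, in which such RNA is retained in the nucleus and binds Muscleblind-like splicing factors. The oligos are antisense oligonucleotides, short chemically modified strands that pair with a chosen RNA and direct its cleavage by RNase H. Injected oligonucleotides of this class enter many cell types, and tissue macrophages are among those that take up most.

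The chips are balanced for oligo but not for genotype. On chip 1 both groups carry the transgene, whereas on chip 2 the oligo group carries it and the saline group does not. Chip, oligo and genotype cannot all be terms of 1 model, since the oligo difference would then rest on chip 1 alone. HSALR saline and WT saline lie on different chips, so in that difference, called for 2373 of 8725 genes (27.2%), chip and genotype cannot be told apart. It is given below beside many of the named genes.

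Of 25697 probes on the array, 12364 were detected (detection p under 0.05) on at least 4 arrays, and the brightest probe of each named gene gave 8725 genes. Arrays detected between 10835 and 11700 probes. Before normalization the 75th percentile of intensity averaged 146.1 ± 8.91 on ASO 445236 arrays and 112.2 ± 7.63 on HSALR saline arrays (SD, n = 4 each, two-sided exact permutation p = 0.0286, the smallest possible, 0.114 after Benjamini-Hochberg adjustment over 4 tests). On chip 2 it averaged 162.6 ± 22.9 on ASO 190401 arrays and 139 ± 11.9 on WT saline arrays (exact p = 0.114, adjusted 0.228). Quantile normalization removes such offsets, and their part in the results was not tested beyond the scalings given at the end. ASO 190401 replicate 4 and WT saline replicate 1 held 46 and 14 cells that were not numbers. Without those arrays the comparison called 59 genes higher and 35 lower, in place of 125 and 84.

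With oligo, 125 genes were higher and 84 lower than with saline, 1.43% and 0.963% of the 8725 tested (limma, adjusted p under 0.05). A gene was counted as moved on both chips when it passed that test and, on each chip, all 4 oligo arrays lay on the same side of all 4 saline arrays. Median scaling, which moved the median of all genes to 0.166, called 2194 higher and 78 lower. Of the genes tested, 40 moved up (0.458%) and 22 moved down (0.252%), 62 in all (0.711%), against 470 up and 2 down under median scaling. The genes that rose were led by Lgals3, Gpnmb, Ifit3 and Mettl21e, and those that fell by Col6a2, Smyd2, Ltbp4 and Cavin3. The changes were small: 9 genes rose and 10 fell by at least 1.5-fold, and 2 changed by at least 2-fold. The median log2 difference was 0.33 over the 40 that rose and -0.56 over the 22 that fell, against 0.01 over all genes tested. Not all of the 62 passed the test within each chip (limma, adjusted p under 0.05). Of the 40 that rose, 11 were called on each chip, 19 on chip 1 only, 6 on chip 2 only and 4 on neither. Of the 22 that fell, 15 were called on each chip, 2 on chip 1 only, 5 on chip 2 only and 0 on neither. Since the same values chose the 62 genes, their within-chip values describe them and are not separate support.

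Within the chips, far more genes differed than moved on both. ASO 445236 minus HSALR saline on chip 1 called 1181 genes (13.5%), 594 higher (6.81%) and 587 lower (6.73%), against 1530 and 257 under median scaling. ASO 190401 minus WT saline on chip 2 called 907 genes (10.4%), 444 higher (5.09%) and 463 lower (5.31%), against 1808 and 282 under median scaling. These differences share no array. In the same direction on each chip 36 genes were called (0.413% of genes tested), 18 higher and 18 lower (0.206% each), which is 3.05% of the chip 1 calls and 3.97% of the chip 2 calls. In opposite directions 202 were called (2.32%), 88 higher on chip 1 and lower on chip 2 (1.01%) and 114 the other way (1.31%). They make up 17.1% of the chip 1 calls and 22.3% of the chip 2 calls. Of the 202, 195 were also called HSALR saline minus WT saline, against 27.2% of all genes, a difference that uses the same saline arrays. On chip 2 genotype differs together with oligo, so opposite calls do not compare the oligos alone. Over the 8725 genes, which are not independent, Pearson's r between the chips' differences was -0.281, and 3947 genes (45.2%) had the same sign on both. The difference between the chips' oligo differences was itself called for 1470 genes (16.8%). Of the 209 genes called for oligo (2.4%), 43 were among them, and of the 62 that moved on both chips only Col6a2 was. The model and the rule of no overlap tend to pass over genes that differ between chips, so these 2 counts are not separate support. HSALR saline minus WT saline was called for 82 of the 209 and 16 of the 62, against 27.2% of all genes. Within the chips, 36 of the 209 were called on each chip in the same direction, 94 on chip 1 alone, 66 on chip 2 alone and 13 on neither. The 66 were called only on the chip where genotype differs together with oligo.

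**Figure D1:**
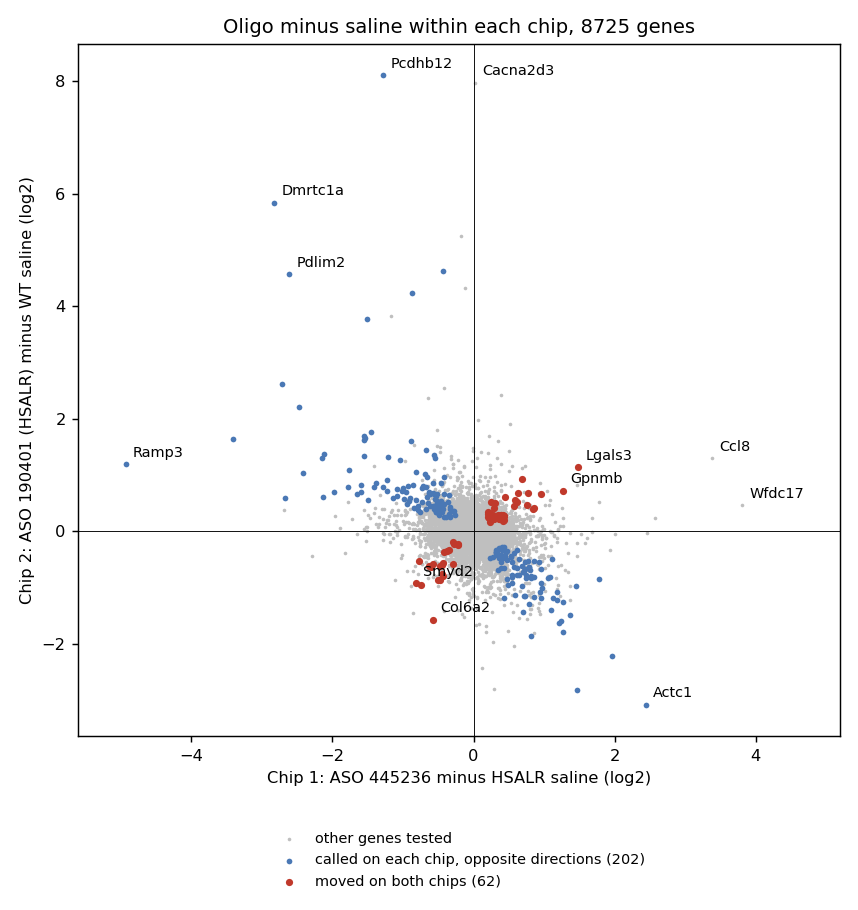
Each point is 1 of 8725 genes, with ASO 445236 minus HSALR saline on chip 1 along the x axis and ASO 190401 minus WT saline on chip 2 along the y axis, both as log2 differences of group means. The 62 genes that moved on both chips (red) lie in the lower left and upper right, and the 202 called in opposite directions (blue) lie in the upper left and lower right and reach farther from 0.

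The clearest rise was in Lgals3, which encodes galectin-3, a sugar-binding lectin abundant in macrophages. Its log2 normalized intensity was 10.42, 10.42, 10.42 and 10.83 with ASO 445236, against 9.30, 9.03, 8.76 and 9.05 with HSALR saline. It was 9.43, 9.49, 9.63 and 9.49 with ASO 190401, against 7.74, 8.39, 8.97 and 8.39 with WT saline. Oligo arrays were above saline arrays on each chip without overlap, although the ASO 190401 arrays were only a little above the HSALR saline arrays of the other chip. Lgals3 rose 2.48-fold, a log2 difference of 1.31 ± 0.14 (SE, limma adjusted p = 9.98e-05), with 1.49 on chip 1 and 1.14 on chip 2. HSALR saline minus WT saline was 0.66 (adjusted p = 0.00998).

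Gpnmb encodes a transmembrane glycoprotein of phagocytes and lysosomes. Its level was 8.56, 8.88, 8.70 and 9.25 with ASO 445236, against 7.58, 7.79, 7.25 and 7.68 with HSALR saline. With ASO 190401 it was 8.38, 8.15, 8.06 and 8.65, against 7.55, 7.30, 7.73 and 7.78 with WT saline. Every oligo array was above every saline array of either chip, and the saline groups lay together. The rise was 2.0-fold, 0.997 ± 0.14 on the log2 scale (adjusted p = 0.0014), with 1.27 on chip 1 and 0.72 on chip 2. HSALR saline minus WT saline was -0.02 (adjusted p = 0.953).

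Ifit3 is an interferon-induced gene of the antiviral response. Its level was 7.42, 7.52, 7.22 and 6.87 with ASO 445236, against 6.28, 6.41, 6.11 and 6.37 with HSALR saline. It was 7.23, 7.38, 7.99 and 7.90 with ASO 190401, against 6.53, 6.98, 7.21 and 7.12 with WT saline. The groups were clearly apart on chip 1 and nearly touched on chip 2, and HSALR saline minus WT saline was -0.66 (adjusted p = 0.0135). Ifit3 rose 1.76-fold (0.81 ± 0.14, adjusted p = 0.00654).

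Promoters from RefSeq (GRCm38.p6, 250 bases before to 50 after the start) were searched for motifs, since genes of the phagocyte and interferon lists led the rises. Of the 40 genes that rose 28 had an entry, and of the 22 that fell 16 had one. The promoters of Ifit3 and Gpnmb are printed because they are the leading interferon and phagocyte genes with an entry, with matches to the motif named for each in capitals. The Ifit3 promoter, chr19:34583279-34583578 on the plus strand, holds 2 matches to the interferon-stimulated response element, 156 and 122 bases before the start. The Gpnmb promoter, chr6:49036268-49036567 on the plus strand, holds 1 match to the AP-1 motif, 8 bases after the start.
Ifit3: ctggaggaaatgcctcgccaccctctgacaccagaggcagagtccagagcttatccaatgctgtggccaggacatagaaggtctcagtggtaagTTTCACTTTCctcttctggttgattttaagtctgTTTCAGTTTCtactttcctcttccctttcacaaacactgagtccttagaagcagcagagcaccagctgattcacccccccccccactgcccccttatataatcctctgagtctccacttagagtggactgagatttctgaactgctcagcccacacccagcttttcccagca
Gpnmb: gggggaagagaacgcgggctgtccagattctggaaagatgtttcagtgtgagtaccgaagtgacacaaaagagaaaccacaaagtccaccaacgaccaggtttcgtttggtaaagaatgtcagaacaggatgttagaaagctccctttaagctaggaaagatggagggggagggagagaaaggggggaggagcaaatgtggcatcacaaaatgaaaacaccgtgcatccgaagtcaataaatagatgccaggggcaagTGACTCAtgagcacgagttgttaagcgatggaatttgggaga

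The interferon element was searched as GAAANNGAAA on both strands (TTTCNNTTTC on the other). A gene was counted if any of its promoters held a match. The element was found for 2 of the 28 genes that rose, Ifit3 and Gpn3, and 1 of the 16 that fell. Of all 27025 genes with an entry, 3.99% held it. The AP-1 motif, TGANTCA on both strands, was found for 3 of the 28 (Gpnmb, Ifit3 and Osgin1), for 1 of the 16, and for 8.97% of all genes with an entry. The M-box, TCATGTG on both strands (CACATGA on the other), was found for 0 of the 28 and 2 of the 16, and for 4.31% of all. The E-box, CACGTG, was found for 2 of the 28 and 1 of the 16, and for 8.09% of all. The TATA box, TATAAA on both strands (TTTATA on the other), was found for 1 of the 28 and 1 of the 16, and for 15.67% of all. A match describes these letters and does not show a site in use.

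Among the other genes that rose, Mettl21e encodes a lysine methyltransferase of skeletal muscle. Its level was 5.95, 5.74, 6.34 and 6.10 with ASO 445236, against 5.45, 5.51, 5.08 and 5.30 with HSALR saline. It was 6.56, 6.66, 6.16 and 6.55 with ASO 190401, against 5.61, 5.21, 5.63 and 5.77 with WT saline. The groups did not overlap on either chip, and the rise was 1.75-fold (0.81 ± 0.12, adjusted p = 0.00213). The saline levels were dim: the probe was above background on 2 of 4 HSALR saline and 3 of 4 WT saline arrays. HSALR saline minus WT saline was -0.22 (adjusted p = 0.367).

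Slc2a6, a sugar transporter, ranged from 5.73 to 6.41 with ASO 445236, against 5.15 to 5.54 with HSALR saline. It ranged from 5.67 to 5.95 with ASO 190401, against 4.83 to 5.32 with WT saline. No WT saline array was above background, so on chip 2 Slc2a6 was at least 1.38-fold higher with ASO 190401. Osgin1, a gene induced by oxidative stress, rose 1.55-fold (0.64 ± 0.12, adjusted p = 0.0123), with 0.86 on chip 1 and 0.41 on chip 2. Uap1l1, related to the enzyme that makes UDP-N-acetylglucosamine, rose 1.54-fold (0.62 ± 0.10, adjusted p = 0.00453). Lin7c, a scaffold protein of cell junctions, rose 1.57-fold (0.65 ± 0.14, adjusted p = 0.0225). Mlec, a lectin of the endoplasmic reticulum, rose 1.44-fold (0.53 ± 0.09, adjusted p = 0.00934), and its other 3 probes were also higher on both chips. HSALR saline minus WT saline was -0.52 for Osgin1 (adjusted p = 0.0137), 0.47 for Uap1l1 (adjusted p = 0.00678) and 0.56 for Mlec (adjusted p = 0.00363). For Uap1l1 and Mlec, ASO 190401 and HSALR saline arrays, on different chips, lay at like levels. ASO 190401 minus HSALR saline was -0.07 and 0.06 (limma adjusted p = 0.755 and 0.821). Without a chip term both lost their calls (adjusted p = 0.118 and 0.0824).

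Crhr2, the receptor for urocortins, Megf10, an engulfment receptor of satellite cells, and Phex, a membrane endopeptidase, also rose. The log2 difference of Crhr2 was 0.61, and its HSALR saline minus WT saline difference was -0.63 (adjusted p = 0.0286). Their calls were fragile: when each of the 16 arrays was left out in turn, Crhr2 lost its call for 11 of them (adjusted p up to 0.0744), Megf10 for 10 (up to 0.0712) and Phex for 4 (up to 0.0602). No HSALR saline array had Megf10 or Phex above background, so on chip 1 Megf10 was at least 1.30-fold and Phex at least 1.21-fold higher with ASO 445236. Phex was above background on no WT saline array either, and was at least 1.01-fold higher with ASO 190401 on chip 2.

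**Figure D2:**
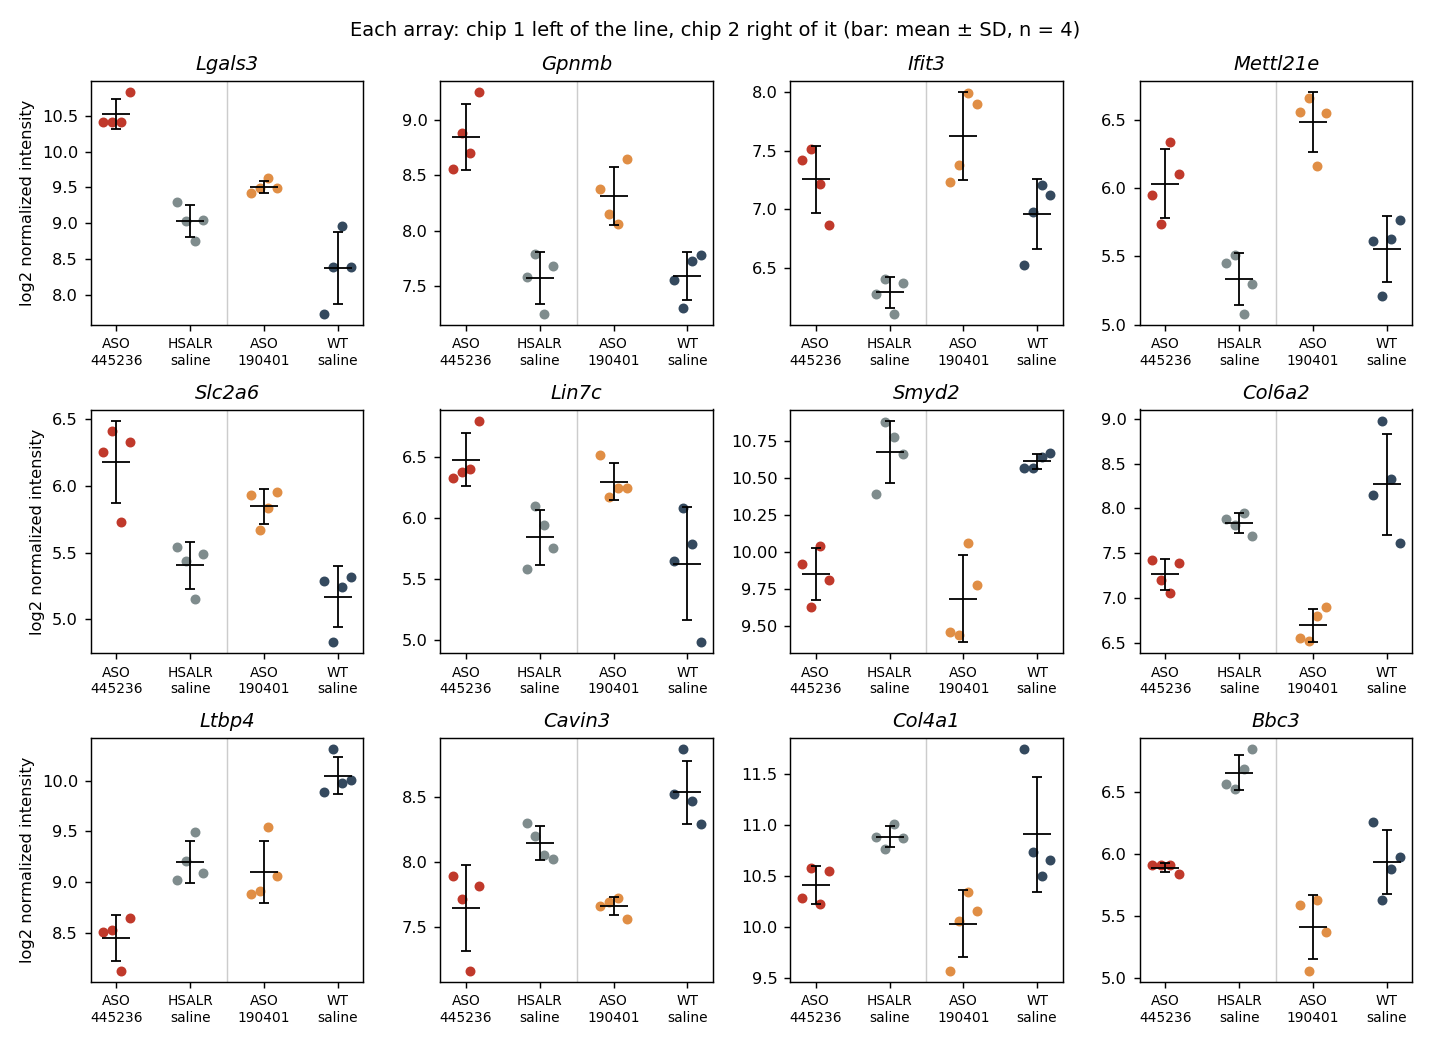
Points are single arrays for 6 of the genes that rose and 6 that fell, on the log2 normalized intensity scale, with the mean and SD of each group of 4. Chip 1 (ASO 445236, then HSALR saline) stands left of the grey line and chip 2 (ASO 190401, then WT saline) right of it, and on each chip the oligo arrays lie wholly above or wholly below the saline arrays.

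The remaining 28 genes that rose had log2 differences of 0.20 to 0.51. Ncl, nucleolin of the nucleolus, was 9.16, 9.37, 9.12 and 9.05 with ASO 445236, against 8.74, 8.76, 8.91 and 8.74 with HSALR saline. It was 9.10, 9.07, 9.08 and 9.18 with ASO 190401, against 8.75, 8.86, 8.96 and 8.89 with WT saline. It rose 1.24-fold (0.31 ± 0.06, adjusted p = 0.0173), and its other probe was higher on both chips as well.

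Gnl2, a nucleolar GTPase of ribosome assembly, rose 1.27-fold (0.35 ± 0.07, adjusted p = 0.0156), but its other probe gave 0.30 on chip 1 and -0.30 on chip 2. Exosc4, a subunit of the RNA exosome, rose 1.23-fold (0.29 ± 0.06, adjusted p = 0.021, and 0.0501 without HSALR saline replicate 2). Its HSALR saline minus WT saline difference was -0.25 (adjusted p = 0.0211). Nars, the asparaginyl-tRNA synthetase, rose 1.2-fold (0.26 ± 0.06, adjusted p = 0.0225, and 0.0511 without ASO 445236 replicate 3). Emb, the membrane glycoprotein embigin, rose 1.42-fold (0.51 ± 0.10, adjusted p = 0.0132). Tsc22d3, a glucocorticoid-induced gene, rose 1.30-fold (0.38 ± 0.08, adjusted p = 0.0239, and 0.0542 without HSALR saline replicate 2). Its other probe gave 0.39 on chip 1 and 0.08 on chip 2, and with all probes averaged the adjusted p was 0.134. Phkb, a subunit of phosphorylase kinase in glycogen breakdown, rose 1.22-fold (0.29 ± 0.06, adjusted p = 0.0225, and 0.0511 without ASO 445236 replicate 3). With all probes averaged the adjusted p of Phkb was 0.086.

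Among the genes that fell, Smyd2, a lysine methyltransferase of muscle, fell to a like degree on both chips. Its level was 9.92, 9.63, 10.04 and 9.81 with ASO 445236, against 10.39, 10.88, 10.78 and 10.66 with HSALR saline. It was 9.46, 9.44, 10.06 and 9.78 with ASO 190401, against 10.57, 10.57, 10.64 and 10.67 with WT saline. All 8 oligo arrays lay below all 8 saline arrays. Smyd2 fell to 0.545 of its saline level (-0.88 ± 0.09, adjusted p = 9.98e-05), with -0.82 on chip 1 and -0.93 on chip 2, and HSALR saline minus WT saline was 0.06 (adjusted p = 0.755). Its other probe gave -1.22 on chip 1 and -1.16 on chip 2.

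Genes of the extracellular matrix and basement membrane fell more often than they rose. Of 29 tested members of the extracellular matrix list, 0 were called higher and 7 lower (Col6a2, Col4a1, Col6a1, Nid2, Lamc1, Hspg2 and P4hb), against 1.43% and 0.963% of all genes, and 4 of the 7 moved on both chips. At an unadjusted p under 0.05, 0 members were higher and 16 lower (limma), against 10.1% and 8.56% of all genes tested. The list's median log2 difference was -0.35, against 0.01 over all genes. It was unlike on the chips: the median was -0.01 on chip 1, where 1 member was called higher and 3 lower, and -0.65 on chip 2, where 1 was called higher and 17 lower. Over all genes chip 1 called 6.81% higher and 6.73% lower, and chip 2 5.09% and 5.31%. The summed level of the list spanned 20635 to 25842 with ASO 445236, against 23911 to 25761 with HSALR saline. It spanned 16117 to 19485 with ASO 190401, against 24267 to 33709 with WT saline, without overlap on that chip. On chip 2 genotype differs together with oligo, so for the falls on that chip their parts cannot be told apart. In whole muscle, fewer matrix-producing cells and less RNA per cell cannot be told apart either.

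Col6a2, a chain of collagen VI, was 7.42, 7.20, 7.05 and 7.39 with ASO 445236, against 7.88, 7.81, 7.95 and 7.69 with HSALR saline. It was 6.55, 6.52, 6.80 and 6.90 with ASO 190401, against 8.15, 8.98, 8.33 and 7.61 with WT saline. It fell to 0.476 of its saline level (-1.07 ± 0.19, adjusted p = 0.00697). The fall was larger on chip 2 (-1.57) than on chip 1 (-0.57), and the difference of 1.004 between them passed its test (adjusted p = 0.0189). For Col6a2, HSALR saline minus WT saline was -0.43 (adjusted p = 0.118). Col6a1, a partner chain, was -0.06 on chip 1 and -1.22 on chip 2, and lost its call without any 1 of 11 arrays (adjusted p up to 0.0803).

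Nid2, the basement membrane protein nidogen-2, was -0.25 on chip 1 and -0.93 on chip 2, and the difference of 0.68 between them passed its test (adjusted p = 0.00611). HSALR saline minus WT saline was -0.63 for Nid2 (adjusted p = 0.000371). Hspg2, perlecan, was 10.50, 10.84, 10.24 and 10.78 with ASO 445236, against 11.07, 10.92, 11.16 and 10.96 with HSALR saline. It was 10.21, 10.55, 10.66 and 10.59 with ASO 190401, against 11.31, 10.81, 11.01 and 11.14 with WT saline. All 8 oligo arrays but ASO 445236 replicate 2 lay below every saline array of both chips, and that array overlapped only with WT saline. Hspg2 fell to 0.708 of its saline level (-0.50 ± 0.09, adjusted p = 0.0132).

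Lamc1, the laminin gamma-1 chain, fell to 0.694 of its saline level (-0.53 ± 0.10, adjusted p = 0.0137), with -0.44 on chip 1 and -0.61 on chip 2. Col4a1, a chain of the basement membrane collagen IV, ranged from 10.22 to 10.58 with ASO 445236, against 10.76 to 11.01 with HSALR saline, and from 9.57 to 10.34 with ASO 190401, against 10.50 to 11.74 with WT saline. It fell to 0.627 of its saline level (-0.67 ± 0.15, adjusted p = 0.0294), and the call was lost without HSALR saline replicate 3, ASO 445236 replicate 3 or ASO 190401 replicate 1 (adjusted p up to 0.0641). For Hspg2, Lamc1 and Col4a1, HSALR saline minus WT saline was -0.04, 0.01 and -0.02 (adjusted p = 0.856, 0.975 and 0.946).

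Ltbp4, which binds latent TGF-beta in the matrix, was 8.51, 8.53, 8.13 and 8.65 with ASO 445236, against 9.02, 9.21, 9.49 and 9.09 with HSALR saline. It was 8.88, 8.91, 9.54 and 9.06 with ASO 190401, against 9.89, 10.31, 9.98 and 10.01 with WT saline. Within each chip the groups were apart, but ASO 190401 and HSALR saline arrays, on different chips, lay at like levels. Ltbp4 fell to 0.555 of its saline level (-0.85 ± 0.11, adjusted p = 0.00113), its other probe was lower on both chips, and HSALR saline minus WT saline was -0.85 (adjusted p = 0.000316). Colgalt2, an enzyme that adds galactose to collagen, fell to 0.647 (-0.63 ± 0.13, adjusted p = 0.0225). Its call was lost without HSALR saline replicate 2 or ASO 445236 replicate 3 (adjusted p up to 0.0527).

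**Figure D3:**
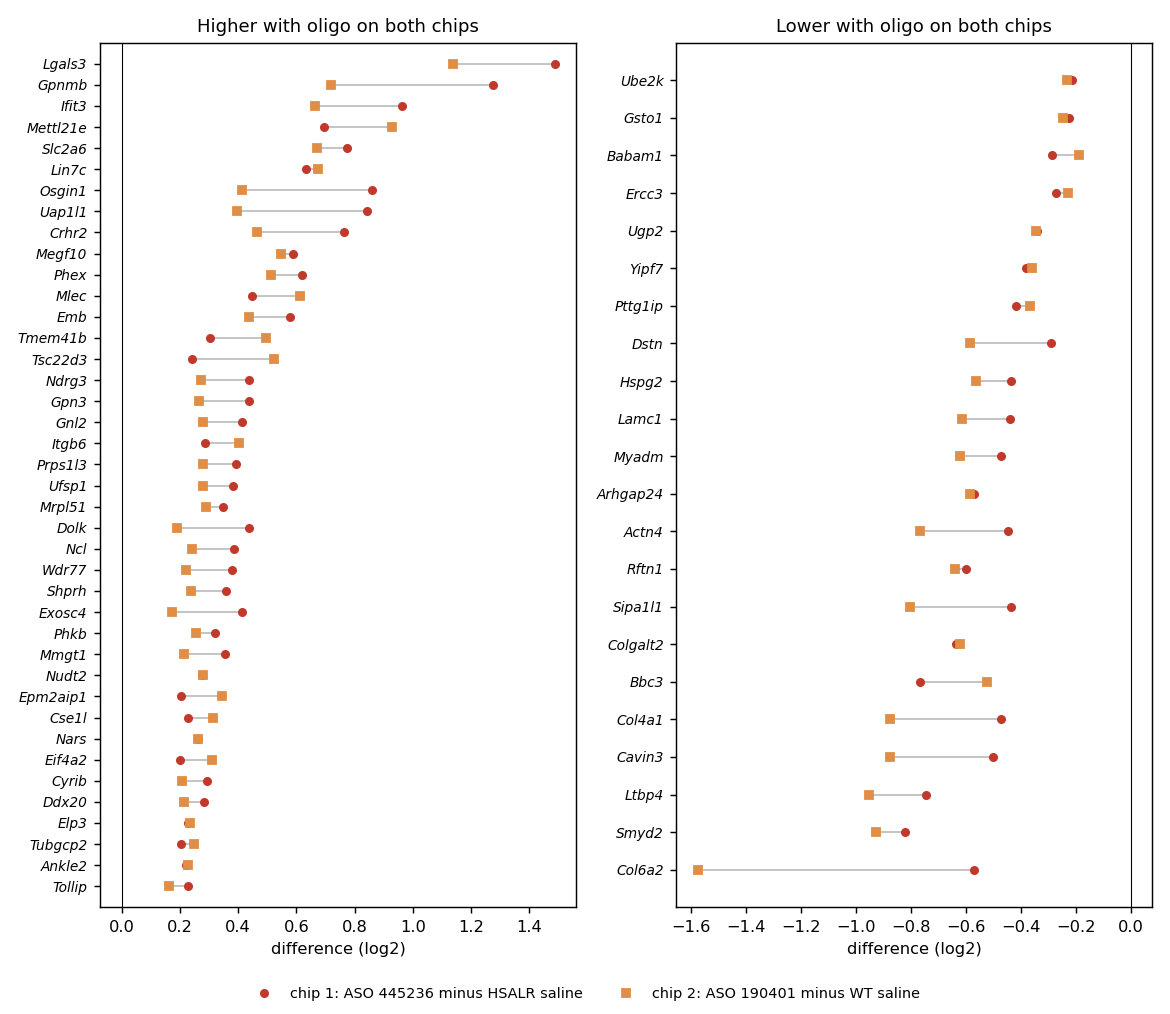
The within-chip log2 differences of the 62 genes that moved on both chips are plotted in order of the oligo minus saline difference, chip 1 as circles and chip 2 as squares. The widest gap between chips is that of Col6a2, at -0.57 on chip 1 and -1.57 on chip 2, the only 1 of the 62 whose difference between chips passed its test. The rule that chose the 62 selects against such differences.

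Arhgap24 was 8.14, 8.09, 8.12 and 8.41 with ASO 445236, against 8.64, 8.86, 8.73 and 8.81 with HSALR saline. It was 7.99, 8.39, 7.99 and 8.21 with ASO 190401, against 8.86, 8.78, 8.64 and 8.63 with WT saline. All 8 oligo arrays lay below all 8 saline arrays, and Arhgap24 fell to 0.67 of its saline level (-0.58 ± 0.08, adjusted p = 0.0014), alike on chip 1 (-0.57) and chip 2 (-0.58).

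Cavin3, a coat protein of caveolae, fell to 0.621 (-0.69 ± 0.11, adjusted p = 0.0055), though its other probe gave -0.13 on chip 1 and -0.81 on chip 2. For Cavin3, HSALR saline minus WT saline was -0.40 (adjusted p = 0.0536). Rftn1, a lipid raft protein, fell to 0.651 (-0.62 ± 0.11, adjusted p = 0.00921). Sipa1l1, a regulator of Rap GTPases, fell to 0.65 (-0.62 ± 0.12, adjusted p = 0.0144), and Myadm, a membrane protein, fell to 0.685 (-0.55 ± 0.11, adjusted p = 0.0173). HSALR saline minus WT saline was -0.47 for Sipa1l1 (adjusted p = 0.0322). Dstn, the actin-depolymerizing protein destrin, fell to 0.738 (-0.44 ± 0.07, adjusted p = 0.00606). Actn4, a non-muscle actinin, gave -0.61 (adjusted p = 0.0173), but its other probes were higher on chip 1 (0.39 and 0.32), so its direction on that chip depends on the probe.

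Bbc3, the p53-induced death gene Puma, was 5.91, 5.91, 5.91 and 5.84 with ASO 445236, against 6.57, 6.53, 6.69 and 6.85 with HSALR saline. It was 5.59, 5.06, 5.63 and 5.37 with ASO 190401, against 6.26, 5.63, 5.88 and 5.98 with WT saline. On chip 2 the groups were apart by less than 0.01. Bbc3 fell to 0.639 of its saline level (-0.65 ± 0.11, adjusted p = 0.00671), while its other probe, dimmer, gave -0.31 and -0.01, and with all probes averaged the adjusted p was 0.0503. For Bbc3, HSALR saline minus WT saline was 0.72 (adjusted p = 0.00196). Bbc3 was the only 1 called of 10 tested p53 targets, against 2.4% of all genes. Cdkn1a, the cell cycle inhibitor p21, was -1.21 on chip 1 and 1.31 on chip 2.

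Several falls were smaller. Pttg1ip fell to 0.762 (-0.39 ± 0.06, adjusted p = 0.00205), Yipf7 to 0.774 (-0.37 ± 0.05, adjusted p = 0.0017) and Ugp2, the enzyme that makes UDP-glucose, to 0.788 (-0.34 ± 0.06, adjusted p = 0.00473). For Ugp2 the within-chip differences were -0.34 on chip 1 and -0.35 on chip 2. Under median scaling the 3 were -0.16, -0.15 and -0.13 and lost their calls (adjusted p = 0.115, 0.0717 and 0.175), as did Myadm (adjusted p = 0.0531) and Dstn (adjusted p = 0.07).

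Macrophage and monocyte markers differed between the chips. Of 22 tested, 5 were called higher with oligo and 0 lower (Wfdc17, Ms4a7, Lgals3, Laptm5 and Trem2), against 1.43% and 0.963% of all genes, and Lgals3 alone moved on both chips. At an unadjusted p under 0.05, 11 were higher and 0 lower (limma), against 10.1% and 8.56% of all genes. On chip 1, 16 of the 22 were called higher, against 6.81% of all genes, with a median log2 difference of 1.10. On chip 2, 1 was called higher and 2 lower, against 5.09% and 5.31% of all genes, with a median of -0.16. The summed level of the list spanned 13943 to 20627 with ASO 445236, against 3813 to 7434 with HSALR saline, and 7172 to 9615 with ASO 190401, against 5860 to 13189 with WT saline. The groups did not overlap on chip 1 and overlapped on chip 2. Adgre1, Lyz2 and C1qa were measured, while Cd68, Csf1r, Itgam and Ptprc were not among the genes tested, and the part of cell number in these values was not tested.

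Wfdc17, a secreted protein of macrophages, shows this split. It was 9.87, 8.77, 8.87 and 9.07 with ASO 445236, against 5.94, 5.51, 4.89 and 4.99 with HSALR saline. It was 6.80, 6.30, 6.89 and 6.02 with ASO 190401, against 5.24, 6.17, 6.78 and 6.0 with WT saline. The arrays were far apart on chip 1 and overlapped on chip 2. The log2 difference was 3.81 on chip 1 and 0.46 on chip 2, and the difference between them passed its test (3.35, adjusted p = 3.42e-05). The call over both chips was lost without HSALR saline replicate 2 or ASO 445236 replicate 3 (adjusted p up to 0.054). Ms4a7 and Laptm5 lost theirs without any 1 of 11 arrays (adjusted p up to 0.0922 and 0.0884).

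Of 26 tested lysosome and phagocytosis genes, Gpnmb was called higher and 0 were called lower, against 1.43% and 0.963% of all genes (limma). At an unadjusted p under 0.05, 4 were higher and 2 lower, against 10.1% and 8.56% of all genes. On chip 1, 11 were called higher, against 6.81% of all genes, and on chip 2, 1 higher and 6 lower, against 5.09% and 5.31%. The lysosomal protease gene Ctss was 1.19 on chip 1 and 0.03 on chip 2, and Grn, which encodes progranulin, was 1.11 and -0.50.

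Among 15 tested chemokine and cytokine genes, Ccl8 and Ccl7 were called higher and Cxcl12 lower, against 1.43% and 0.963% of all genes. Ccl8, a monocyte-attracting chemokine, was 9.08, 7.96, 7.98 and 8.15 with ASO 445236, against 4.94, 5.04, 4.66 and 4.98 with HSALR saline. It was 6.83, 6.0, 6.80 and 6.31 with ASO 190401, against 4.58, 5.0, 6.10 and 5.08 with WT saline. It was above background on all 8 oligo arrays, on 0 of 4 HSALR saline arrays and on 1 of 4 WT saline arrays. WT saline replicate 3 overlapped with the lowest ASO 190401 array. On chip 1 Ccl8 was at least 7.72-fold higher with ASO 445236, and the fitted difference on chip 2 was 1.29 (adjusted p = 0.00711).

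Over both chips the adjusted p of Ccl8 was 0.0014, and the fitted difference was larger on chip 1 (adjusted p of the difference between chips = 0.00154). Ccl7, a related chemokine, was 0.95 on chip 1 and 0.85 on chip 2, and was above background on 3 of 4 arrays in each oligo group and 1 of 4 in each saline group. Its call was lost without HSALR saline replicate 2 or 3, ASO 445236 replicate 3 or ASO 190401 replicate 1 (adjusted p up to 0.0636). Cxcl12, a chemokine of stromal cells, was -0.88 on chip 1 and -0.98 on chip 2 (adjusted p = 0.0235, and 0.0562 without ASO 445236 replicate 3). Its groups overlapped on both chips. Its other probes gave -0.39 and 0.02 on chip 1, the latter from a probe above background on 6 arrays. Both were lower on chip 2, so the size of the fall on chip 1 depends on the probe.

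Of 21 tested interferon response genes, Ifit3, Oasl2 and Usp18 were called higher and 0 lower, against 1.43% and 0.963% of all genes (limma). At an unadjusted p under 0.05, 6 were higher and 0 lower, against 10.1% and 8.56% of all genes. On chip 1, 7 were called higher, against 6.81% of all genes. On chip 2, 2 were called higher and 1 lower, against 5.09% and 5.31%. Oasl2, an interferon-induced gene of the oligoadenylate synthetase family, was 7.23, 7.31, 6.74 and 6.99 with ASO 445236, against 5.83, 5.61, 5.38 and 5.59 with HSALR saline. It was 6.81, 7.04, 7.65 and 7.55 with ASO 190401, against 6.26, 6.14, 6.49 and 6.85 with WT saline. Oasl2 rose 2.21-fold (1.15 ± 0.16, adjusted p = 0.0014), but the groups overlapped by 1 pair of arrays on chip 2, and HSALR saline minus WT saline was -0.83 (adjusted p = 0.00389).

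Usp18, which removes the ubiquitin-like protein ISG15, was 1.27 on chip 1 and 0.24 on chip 2, and the chips differed (1.03, adjusted p = 0.00319). Its other probe gave 0.68 on chip 1 and -0.58 on chip 2, and with all probes averaged the adjusted p was 0.193. Its call was lost without HSALR saline replicate 2 or 4 or ASO 445236 replicate 3 (adjusted p up to 0.0542). For Usp18, HSALR saline minus WT saline was -1.22 (adjusted p = 1.29e-05). The summed level of the interferon list spanned 12145 to 16302 with ASO 445236, against 9954 to 11821 with HSALR saline, and 12199 to 17147 with ASO 190401, against 14048 to 16183 with WT saline. Of 14 tested genes of oligo uptake and nucleic acid sensing, 0 were called, against 2.4% of all genes (limma). At an unadjusted p under 0.05, 0 were higher and 2 lower, against 10.1% and 8.56% of all genes. On chip 1, 1 was called higher and 2 lower, against 6.81% and 6.73%, and on chip 2, 0 were called, against 10.4%.

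**Figure D4:**
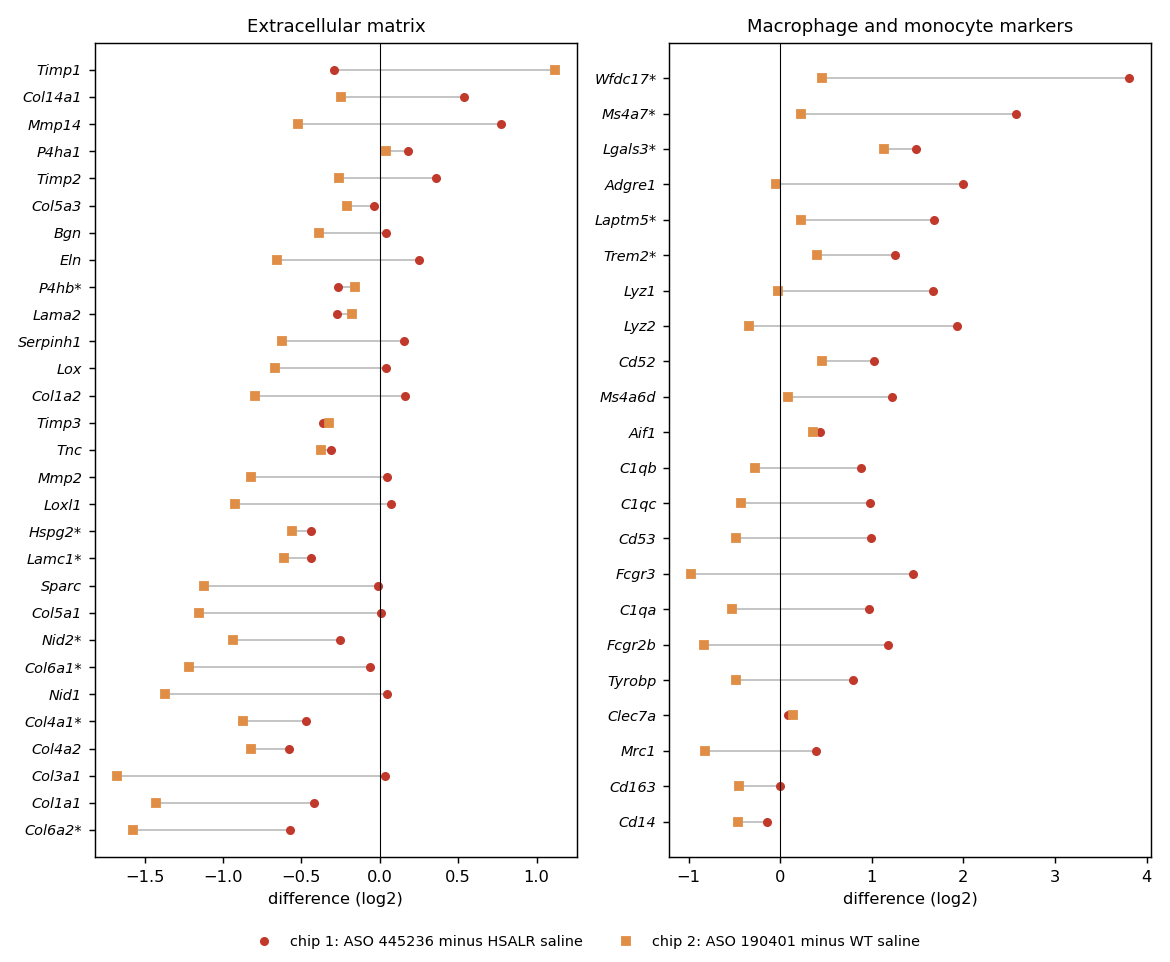
Every tested member of 2 gene lists is plotted by its within-chip log2 difference, chip 1 as circles and chip 2 as squares, with an asterisk where the oligo minus saline difference over both chips had an adjusted p under 0.05. Extracellular matrix genes lie near 0 on chip 1 (median -0.01) and below it on chip 2 (median -0.65), and macrophage markers lie above 0 on chip 1 (median 1.10) and near it on chip 2 (median -0.16).

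Of 15 tested endothelial markers, Tie1 and Cav1 were called lower and 0 higher, against 0.963% and 1.43% of all genes (limma). At an unadjusted p under 0.05, 11 were lower and 0 higher, against 8.56% and 10.1% of all genes. Of the list 13 of 15 were below 0 on both chips, against 1725 of 8725 genes tested. The list's median was -0.52 on chip 1 and -0.59 on chip 2. Its summed level spanned 6321 to 11582 with ASO 445236, against 9549 to 12087 with HSALR saline, and 6634 to 10127 with ASO 190401, against 10273 to 15420 with WT saline, so the groups overlapped on chip 1. Tie1, an endothelial receptor, was -0.56 on chip 1 and -0.79 on chip 2 (adjusted p = 0.0294). The call was lost without HSALR saline replicate 3 or 4, ASO 445236 replicate 4 or ASO 190401 replicate 1 (adjusted p up to 0.0562). Cav1, the coat protein of caveolae, was -0.18 and -0.74, and lost its call without any 1 of 10 arrays (adjusted p up to 0.0809).

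Of 11 tested smooth muscle and pericyte markers only Acta2, smooth muscle actin, was called lower (-0.75 ± 0.17, adjusted p = 0.0311). It lost its call without any 1 of 6 arrays (adjusted p up to 0.067). Of 14 fibroblast markers, Fbln2 was called lower (adjusted p = 0.0337), and lost its call without any 1 of 8 arrays (adjusted p up to 0.0668). With all its probes averaged the adjusted p was 0.145. In that list 4 members were called higher on chip 1 and 10 lower on chip 2, against 6.81% and 5.31% of all genes. Over both chips 0.963% of all genes were called lower. Of 20 lymphocyte markers 0 were among the genes tested.

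Of 14 tested regeneration and denervation genes, Chrng and Gadd45a were called higher, against 1.43% of all genes. Of the 14, 5 had the same sign on both chips, against 45.2% of all genes. Chrng, the fetal subunit of the muscle acetylcholine receptor, was 6.81, 7.37, 6.61 and 7.50 with ASO 445236, against 6.49, 6.35, 6.70 and 7.18 with HSALR saline. It was 8.17, 7.15, 7.37 and 7.70 with ASO 190401, against 5.84, 4.85, 4.94 and 5.07 with WT saline. The groups overlapped on chip 1 and were far apart on chip 2, and the difference between the chips' values was -2.03 (adjusted p = 0.000848). For Chrng, HSALR saline minus WT saline was 1.51 (adjusted p = 0.00028).

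Gadd45a, a stress gene induced by denervation, was 10.30, 10.84, 10.32 and 10.66 with ASO 445236, against 9.77, 9.88, 9.85 and 10.47 with HSALR saline. It was 11.57, 10.95, 10.59 and 11.05 with ASO 190401, against 9.38, 9.83, 10.05 and 10.24 with WT saline. On chip 1 HSALR saline replicate 4 lay within the ASO 445236 range, and on chip 2 there was no overlap. Gadd45a rose 1.80-fold (0.85 ± 0.16, adjusted p = 0.0146), its other probe was higher on both chips, and HSALR saline minus WT saline was 0.12 (adjusted p = 0.714).

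Of 16 excitation and ion channel genes, Clcn1 and Cacna2d3 were called higher, against 1.43% of all genes. Clcn1 encodes the muscle chloride channel whose splicing is disturbed in myotonic dystrophy. It was 7.31, 7.81, 7.85 and 7.64 with ASO 445236, against 6.67, 7.04, 6.80 and 7.11 with HSALR saline, and 7.48, 7.84, 7.85 and 7.58 with ASO 190401, against 7.04, 7.47, 7.63 and 7.41 with WT saline. The groups were apart on chip 1 and overlapped on chip 2. Its other probe gave 0.03 and 0.15, and the call was lost without any 1 of 9 arrays (adjusted p up to 0.0719). For Clcn1, HSALR saline minus WT saline was -0.49 (adjusted p = 0.026).

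Cacna2d3, a calcium channel subunit, was called through chip 2 alone. It lay between 13.58 and 13.68 on all 8 arrays of chip 1 and between 13.18 and 13.91 with ASO 190401, against 4.91 to 6.87 with WT saline. The WT saline arrays stood apart from all others, and on chip 1 the groups overlapped.

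Acta1, Mbnl1, Mbnl2 and Rnaseh1 were not called. Acta1, the mouse skeletal actin gene, was -0.06 ± 0.05 (adjusted p = 0.589). The Muscleblind-like genes Mbnl1 and Mbnl2 were each 0.18 (adjusted p = 0.16 and 0.119). Rnaseh1, which encodes the RNase H that acts on paired antisense strands, was -0.11 ± 0.14 (adjusted p = 0.728). Of 10 tested genes of RNA decay, Exosc4 was called higher and 0 lower, against 1.43% and 0.963% of all genes (limma). At an unadjusted p under 0.05, 2 were higher and 0 lower, against 10.1% and 8.56%. No member was called among 30 oxidative phosphorylation, 18 glycolysis and glycogen, 19 fatty acid use, 19 ribosomal protein, 14 fast fibre and 12 slow fibre genes (limma). At an unadjusted p under 0.05 these lists held 3, 6, 1, 2, 5 and 1 members, against 10.1% higher and 8.56% lower over all genes. In chip 1 and chip 2 alone, 0 of the ribosomal protein genes were called as well, against 13.5% and 10.4% of all genes.

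Of the 202 genes called in opposite directions on the chips, 0 were called for oligo over both chips. Opposite differences largely cancel in that model, so the 0 follows mainly from its form. The 6 with the largest difference between chips were Pcdhb12, Dmrtc1a, Pdlim2, Ramp3, Actc1 and Arhgap8. Pcdhb12, a protocadherin, was 11.73, 12.66, 12.27 and 12.29 with ASO 445236, against 13.57, 13.59, 13.53 and 13.38 with HSALR saline. It was 12.98, 12.74, 12.58 and 12.61 with ASO 190401, against 4.88, 4.45, 4.59 and 4.57 with WT saline, where no array was above background. It was therefore lower with ASO 445236 on chip 1 (-1.28, adjusted p = 8.09e-06) and at least 164-fold higher with ASO 190401 on chip 2. The HSALR saline arrays of Pcdhb12 also lay far above its WT saline arrays, and above its ASO 190401 arrays. On chip 2 genotype and oligo differ together, so for the 6 genes that difference is not one of oligo alone.

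Dmrtc1a was -2.82 on chip 1 and at least 39.5-fold higher on chip 2. Pdlim2, a PDZ and LIM domain protein, was -2.61 on chip 1 and at least 17.6-fold higher on chip 2, while its other 2 probes differed little on chip 1 (-0.09 and -0.07) and were lower on chip 2. Actc1, cardiac actin, was 9.59, 10.11, 11.10 and 10.54 with ASO 445236, against 7.94, 7.65, 7.71 and 8.29 with HSALR saline. It was 8.58, 8.12, 8.33 and 8.54 with ASO 190401, against 11.78, 11.51, 11.42 and 11.20 with WT saline. In Actc1 each oligo group stood apart from its own saline group, in opposite directions, and the oligo minus saline difference was -0.32 ± 0.68 (adjusted p = 0.851).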

How the data were processed

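Total RNA (100 ng per sample) was labelled with biotin, per the labels' protocols, and measured on Illumina bead arrays. The deposited non-normalized table holds an intensity and a detection p-value per probe and array, per the file headers. Between 6907 and 7499 intensities per array were below 0, which values without background subtraction could not be; the sources used here do not give how. The authors' deposited matrix holds normalized intensity values on a linear scale (medians 26.4 to 26.5) and served as an alternative. Only the tool affy is named in the submitters' processing notes, without its role.

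With limma 3.58.1 in R 4.3.3, background was corrected by normexp with parameters from the detection p-values (offset 16), quantile normalized over 16 arrays and put on the log2 scale. Cells that were not numbers (60) were treated as missing, which touched 18 genes. Probes were named through GEO's platform annotation: 23978 had 1 gene, 0 several and 1719 none, and 684 probes that passed the detection filter were unnamed. The gene identifiers of 23962 matched RefSeq. Of the 8725 genes, 2188 had several probes, and the brightest was used.

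Oligo minus saline came from a model of chip and oligo (13 residual degrees of freedom). Within-chip differences and their difference came from a fit with 1 mean per group (12). Tests were two-sided and moderated, allowing for an intensity trend, with Benjamini-Hochberg adjustment over all genes. A level not above background on any array of a group gives a bound, from the lowest signal among detected probes. Replicates of a group correlated at 0.9784 to 0.9921, and no arrays were identical. Precision is limited by the number of arrays.

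The members and gene lists (734 genes in 36 lists, 504 tested) were chosen with earlier results of these data known. Named genes were the 12 largest rises and the 12 largest falls on both chips, and up to 4 called members of each list. Also named were 5 genes of the model and the 6 largest differences between chips. Some genes, among them Ncl and Ugp2, came from the other 28 rises and 10 falls on both chips, by no rule set beforehand. Further members of lists are named as examples or where a count required it.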

Additional observations from a re-analysis of the deposited data

Results flagged for a closer look

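Single arrays stood apart from the 3 others of their group in 17 of 284 groups examined (4 groups for each of 71 named genes), by the gap to the nearest array as a share of the group's range. Chance gives about 1 in 20 groups, here about 14. With ASO 445236, replicate 4 stood apart in Lgals3 (0.987, 10.83 against 10.42 on the 3 others), Lin7c (0.858), Bbc3 (0.891), Arhgap24 (0.841) and Tsc22d3 (0.951). Replicate 3 of that group stood apart in Phex (0.913), replicate 1 in Ccl8 (0.831) and replicate 2 in Ramp3 (0.932). With HSALR saline, replicate 3 stood apart in Ncl (0.845), Exosc4 (0.861) and Pttg1ip (0.923), and replicate 4 in Gadd45a (0.84). With ASO 190401, replicate 2 stood apart in Ccl7 (0.897), and replicate 4 in Tie1 (0.83) and Dmrtc1a (0.939). With WT saline, replicate 1 stood apart in Lamc1 (0.829) and Exosc4 (0.985).

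The oligo minus saline difference was unlike on the chips for 18 named genes, as chip 1 minus chip 2 on the log2 scale in the limma fit. It was larger on chip 1 for Wfdc17 (3.35, adjusted p = 3.42e-05), Ms4a7 (2.35, adjusted p = 0.00081), Laptm5 (1.46, adjusted p = 0.00479), Ccl8 (2.09, adjusted p = 0.00154) and Usp18 (1.03, adjusted p = 0.00319). The fall was larger on chip 2 for Col6a2 (1.004, adjusted p = 0.0189), Col6a1 (1.16, adjusted p = 0.000114), Nid2 (0.68, adjusted p = 0.00611), Fbln2 (0.59, adjusted p = 0.0198) and Cav1 (0.56, adjusted p = 0.0311). It was higher on chip 2 for Chrng (-2.03, adjusted p = 0.000848) and Cacna2d3 (-7.96, adjusted p = 1.98e-11), with WT saline above background on 1 and 2 of 4 arrays, and for Pcdhb12 (-9.39), Dmrtc1a (-8.67), Pdlim2 (-7.18), Ramp3 (-6.12) and Arhgap8 (-5.33). Those 5 fitted values are not measured sizes, because WT saline was above background on 0 of 4 arrays. On chip 2 the 5 genes were at least 164-fold, 39.5-fold, 17.6-fold, 1.39-fold and 4.31-fold higher with ASO 190401. These bounds set transgenic arrays against WT arrays, so they hold genotype as well as oligo. The value of Ccl8 likewise rests on HSALR saline arrays of which 0 of 4 were above background. Actc1 was higher with oligo on chip 1 and lower on chip 2 (5.53, adjusted p = 6.64e-10).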

How the results depend on the processing

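Of 67 called named results, 26 stayed called under every alternative and 40 under every left-out array, and none changed direction. The uncalled Rnaseh1 turned to 0.020 (adjusted p = 0.936) under median scaling, which moved the median of all genes to 0.166; Mbnl1 and Mbnl2 were called under it.

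For oligo minus saline, the counts higher and lower, 125 and 84 as reported, were 353 and 344 with 1 mean per group, 35 and 25 without a chip term, 256 and 189 with median scaling over the genes tested, and 67 and 49 without the detection filter. They were 59 and 35 without both arrays with damaged cells. Median scaling over all probes gave 2194 higher. The 40 genes moved up on both chips became 15 without a chip term, 470 with median scaling, 62 with it over the genes tested and 26 without the detection filter; the 22 moved down became 2 with median scaling. Median scaling gave 1530 higher and 257 lower on chip 1, 1808 and 282 on chip 2, and 391 called in the same direction on each chip (57 when taken over the genes tested). The cause was not tested.

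Leaving out 1 array gave 39 (without HSALR saline replicate 2) to 142 higher and 28 (without ASO 445236 replicate 3) to 94 lower. The count higher also fell by over 1.5 times without HSALR saline replicates 1, 3 or 4, ASO 445236 replicate 3 or 4, or ASO 190401 replicate 1, and the count lower without HSALR saline replicates 2, 3 or 4, ASO 445236 replicate 4, or ASO 190401 replicate 1 or 4. Moved on both chips ranged over 18 to 59 up (18 without HSALR saline replicate 2, 21 without ASO 445236 replicate 3) and 18 to 38 down (38 without ASO 190401 replicate 3, 35 without ASO 445236 replicate 2). Chip 1 ranged over 429 to 693 higher and 418 to 666 lower, chip 2 over 307 to 467 and 322 to 500, the difference between chips over 1203 to 1673, and calls on each chip over 21 to 39 in the same and 147 to 243 in opposite directions. The 21 came without HSALR saline replicate 2 or ASO 445236 replicate 3. Without both damaged arrays, 32 of the 62 genes were among the 55 moved on both chips. No paired analysis was possible because the labels carry no replicate numbers. Dim probes limit the bounds given for Slc2a6, Megf10, Phex and Ccl8.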

Other observations

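Adipocyte markers and slow fibre genes had no member called for oligo minus saline (limma, 1 of each list lower at an unadjusted p under 0.05), but their within-chip medians lay far from 0. Of 10 adipocyte markers, 3 were called higher with ASO 445236 on chip 1 (median log2 difference of the list 0.75), against 6.81% of all genes. With ASO 190401 on chip 2, 7 were called lower (median -1.15), against 5.31% of all genes. The summed level spanned 23257 to 39281 with ASO 445236, against 24489 to 28095 with HSALR saline, and 19631 to 26072 with ASO 190401, against 28351 to 45755 with WT saline. Of 12 slow fibre genes, 2 were called lower on chip 1, against 6.73% of all genes, and 0 on chip 2. The list medians were 0.80 and -0.97, so the chip 1 calls went against the median. The summed level overlapped on both chips: 64664 to 82846 with ASO 445236 and 66007 to 99963 with HSALR saline, 52537 to 102334 with ASO 190401 and 61393 to 130659 with WT saline. Erythroid markers, which follow the blood left in a sample, had 0 of 5 called on either chip (limma, 0 at an unadjusted p under 0.05 over both chips), and their summed level spanned 5530 to 38960 with ASO 445236, against 10825 to 31672 with HSALR saline, and 6010 to 10157 with ASO 190401, against 8114 to 42921 with WT saline.

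In the unfolded protein response list 1 of 15 tested genes, Herpud1, was called higher (0.27 ± 0.05, adjusted p = 0.0173), with 0.30 on chip 1 and 0.24 on chip 2. In the circadian clock list Tef was called higher (adjusted p = 0.0418), and lost its call without any 1 of 12 arrays (adjusted p up to 0.0788). Its other probe gave 0.005 on chip 1 and -0.001 on chip 2, and with all probes averaged the adjusted p was 0.109. In the growth and hormone signalling list, Socs3, a feedback inhibitor of cytokine signalling, was called lower beside the rise of Tsc22d3 (adjusted p = 0.041), and lost its call without any 1 of 11 arrays (adjusted p up to 0.0815). The other lists, among them heat shock, cell cycle, sterol synthesis, complement and antigen presentation, had 0 members called (limma). At an unadjusted p under 0.05 these 5 held 3, 3, 3, 1 and 2 members, against 10.1% higher and 8.56% lower over all genes. After adjustment 1.43% of all genes were called higher and 0.963% lower.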
